A study of Mus musculus with 8 samples.

Results

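The 10 genes described here are Tdrd12, Dazl, Mael, Sycp3, Sycp1, Stk31, Tex19.1, Taf7l, Tex101 and Ddx4, germline genes that are held silent by promoter methylation in many somatic cells. They were taken from a fixed list of names, and all 10 were found among the 17731 genes analysed, each as a single row. Tdrd12 was chosen by its FPKM in these samples, for its large fall, so its levels are given as a description with no test. The other 9 were tested, although all members were chosen with earlier results of these data known. The methylation of their promoters was not measured, so the name of the group could not be checked against these data.

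Their transcripts were read by sequencing total RNA of E14TG2a cells, a mouse embryonic stem cell line of strain 129/Ola, kept on gelatin without feeder cells, in serum, leukaemia inhibitory factor and inhibitors of the kinases GSK3 and MEK, at passages 3 to 6. Wild-type cells (WT) were not edited. E1-KO, E2-KO and E3-KO cells each lacked an enhancer after CRISPR/Cas9 editing, and all 4 groups shared the strain, the medium and the range of passages. Each group held 2 samples called biological duplicates in the labels, which made 8 samples. The study asked how different associations of enhancers with promoters bear on Sox2, a transcription factor gene of pluripotent cells. The labels give neither the positions of the enhancers nor whether a knockout line was 1 clone. A difference from WT can therefore not be told apart from a difference between edited and unedited cells in clone or culture, and the p-values measure the spread between these samples only.

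Germline genes of this kind carry many CpG dinucleotides in their promoters. Around implantation these are methylated by DNMT3A and DNMT3B, with DNMT3L as a cofactor, and the genes then stay silent outside the germ line. In embryonic stem cells a polycomb complex that contains PCGF6, MGA and E2F6 also holds many of them down. Medium with both kinase inhibitors is known to lower DNA methylation in such cells, and low levels of several germline transcripts are commonly seen there.

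RefSeq promoter sequences, 250 bases before to 50 bases after the start in GRCm38.p6, were matched for 10 of 10 genes in 12 entries, since Tdrd12 and Stk31 had 2 each. Those of Tdrd12, Dazl, Tex101 and Ddx4 are shown, with every CpG in capitals, because Tdrd12 and Ddx4 hold the fewest and the most CpGs and because Dazl and Tex101 gave the largest tested changes. Tdrd12 lies at chr7:35537666-35537965, Dazl at chr17:50293571-50293870, Tex101 at chr7:24672001-24672300 and Ddx4 at chr13:112652261-112652560, all on the minus strand.
Tdrd12: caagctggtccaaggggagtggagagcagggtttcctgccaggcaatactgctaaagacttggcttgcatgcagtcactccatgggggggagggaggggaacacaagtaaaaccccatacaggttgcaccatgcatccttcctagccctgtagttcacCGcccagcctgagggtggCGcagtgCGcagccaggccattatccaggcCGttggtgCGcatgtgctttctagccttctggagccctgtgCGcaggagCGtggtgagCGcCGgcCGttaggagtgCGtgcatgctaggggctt
Dazl: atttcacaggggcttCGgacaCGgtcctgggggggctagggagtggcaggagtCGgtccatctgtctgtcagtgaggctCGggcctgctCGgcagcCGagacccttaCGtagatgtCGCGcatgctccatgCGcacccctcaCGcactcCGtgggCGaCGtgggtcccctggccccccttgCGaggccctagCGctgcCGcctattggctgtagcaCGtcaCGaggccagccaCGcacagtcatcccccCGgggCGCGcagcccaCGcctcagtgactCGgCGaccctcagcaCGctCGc
Tex101: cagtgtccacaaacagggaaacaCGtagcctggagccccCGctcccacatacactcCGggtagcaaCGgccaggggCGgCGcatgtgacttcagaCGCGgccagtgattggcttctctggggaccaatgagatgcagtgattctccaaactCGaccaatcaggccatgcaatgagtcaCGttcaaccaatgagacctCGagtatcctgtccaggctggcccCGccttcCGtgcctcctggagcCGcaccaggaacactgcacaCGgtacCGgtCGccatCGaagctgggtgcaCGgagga
Ddx4: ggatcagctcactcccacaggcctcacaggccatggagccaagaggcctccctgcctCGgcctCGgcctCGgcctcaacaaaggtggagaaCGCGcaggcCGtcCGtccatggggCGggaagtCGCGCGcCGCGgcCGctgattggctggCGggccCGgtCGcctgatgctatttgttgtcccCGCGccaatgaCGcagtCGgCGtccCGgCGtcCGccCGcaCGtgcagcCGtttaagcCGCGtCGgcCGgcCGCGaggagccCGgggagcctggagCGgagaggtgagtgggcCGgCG

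The Tdrd12 promoter held 11 CpGs (9 in its second entry), Tex101 held 19, Dazl 28 and Ddx4 38. Each of the 10 genes had more CpGs than the median of 7 over all 32851 promoters of the same length, whose quartiles were 3 and 20. Relative to the number expected from its C and G content, Tdrd12 was near the median of all promoters. That ratio was 0.408 and 0.341 in its entries, against a median of 0.384, and 0.575 or more in every other gene. Between those shown stood Sycp3 with 15 CpGs, Tex19.1 with 16, Taf7l with 17, Sycp1 with 21, Mael with 24 and Stk31 with 28 or 29. The letters CACGTG, the E-box bound by MAX and MGA, were found in 6 of the 10 genes (Mael, Sycp3, Sycp1, Stk31, Taf7l and Ddx4) and in 7.15% of all promoters. This motif reads the same on both strands. The letters GCGGGAA, an E2F site searched on both strands, were found in Sycp3 and Ddx4 and in 4.6% of all promoters, and no match of one motif overlapped a match of the other. Neither string occurred in the windows of Tdrd12, Dazl, Tex19.1 or Tex101. Counted by entry, like the shares of all promoters, CACGTG was in 7 of 12 and GCGGGAA in 2 of 12. Both strings contain a CpG, and the shares were not matched for the CpG content of the promoters. A match is a description of the sequence and shows no binding.

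Levels are given as FPKM, a unit inferred from the values, in which fragments are scaled to transcript length and library depth, so that they can be set side by side between genes. The sums of all values ran from 454974.3 to 532007 per sample. Between 11077 and 11264 genes per sample reached 1 FPKM. The absolute depth was unknown, and steps between low values put the depth of each sample at 0.782 to 1.01 of that of WT replicate 1. Samples of a group correlated with each other at 0.985 to 0.994 over genes, against 0.941 to 0.982 between groups. Sox2 stood at 131 and 136 FPKM in WT and at 58.0 to 114 FPKM in the 6 knockout samples, all below WT. A gene was called changed at a Benjamini-Hochberg adjusted p under 0.05 from limma, fitted to log2(FPKM + 1) over the 11271 genes whose mean reached 1 FPKM. Fold changes are on that scale, which understates those of low genes.

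In WT, Dazl had the highest mean, at 152.3 ± 0.44 FPKM (SD, n = 2), followed by Tex19.1 at 34.3 ± 2.37, Tdrd12 at 16.6 ± 0.378 and Sycp3 at 8.35 ± 1 FPKM. The other 6 means lay between 2.39 and 5.06 FPKM. In that lower part, the neighbours Ddx4 and Stk31, Mael and Sycp1, and Taf7l and Tex101 differed by less than the sum of their SDs. Dazl and Tex19.1 kept the first and second place in every group, although in E3-KO the gap below Tex19.1 was within the SDs. Tdrd12 moved from place 3 of 10 in WT to place 8 in E1-KO and E2-KO and place 9 in E3-KO. Tex101 went from place 10 in WT to place 3 in E3-KO, where the gap below it was within the SDs (6.38 against a sum of 8.19). The gaps between Sycp1 and Tdrd12 in E2-KO and E3-KO, and between Tdrd12 and Taf7l in E1-KO, were within the SDs as well.

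**Figure D1:**
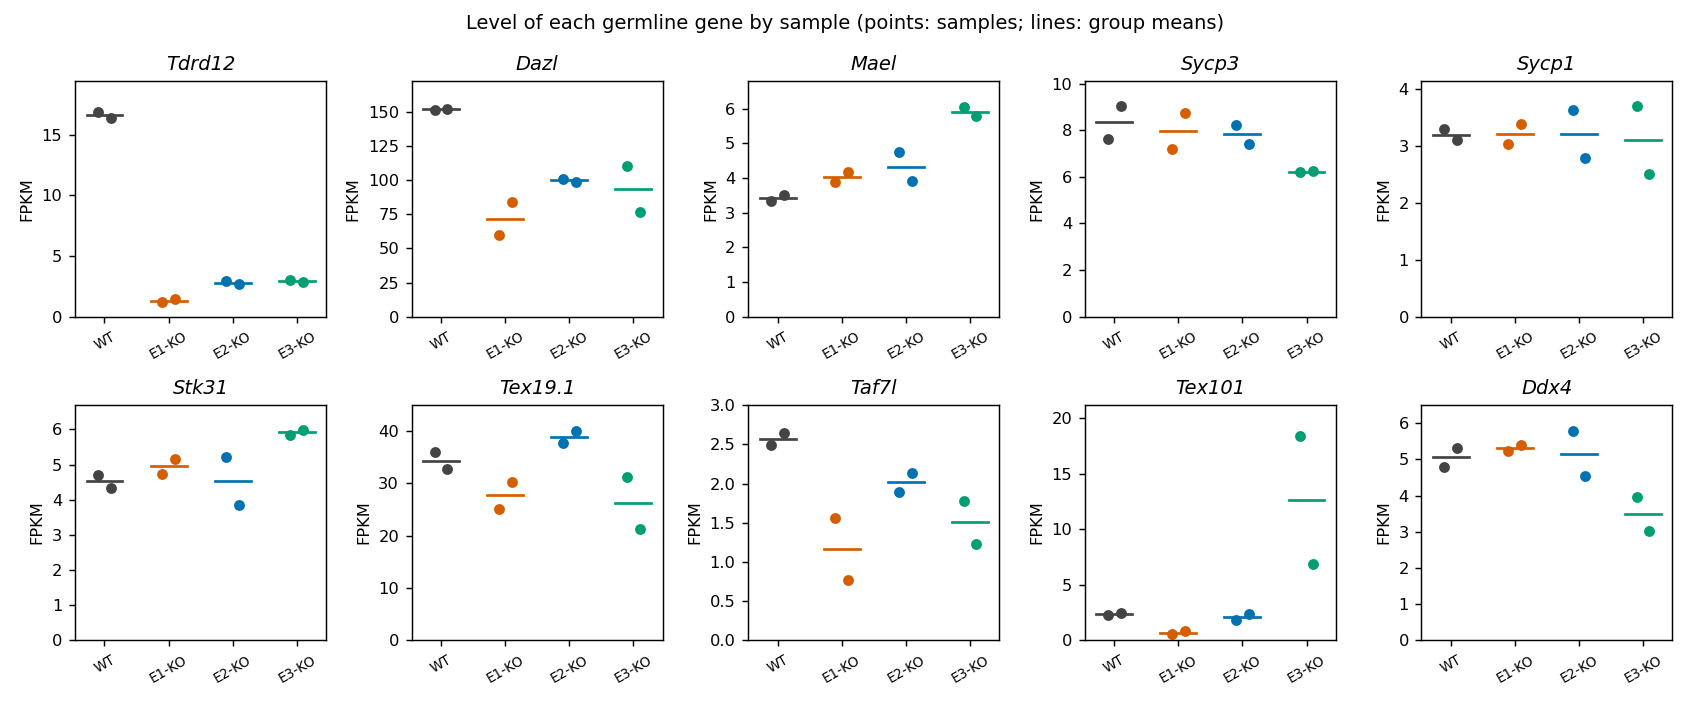
FPKM of each of the 10 germline genes (vertical axes, linear, starting at 0) in the 2 samples of WT, E1-KO, E2-KO and E3-KO (points), with the group means as lines. Tdrd12 and Dazl were below both WT samples in all 6 knockout samples, and Tex101 was above both WT samples only in E3-KO.

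Of the 9 tested genes, 3 fell and none rose in E1-KO, 1 fell and none rose in E2-KO, and 2 fell and 2 rose in E3-KO, each against WT. The genes that fell were Dazl, Taf7l and Tex101 in E1-KO, Dazl in E2-KO, and Dazl and Ddx4 in E3-KO, while Mael and Tex101 rose in E3-KO. Over all 11271 genes tested, E1-KO had 38% called, E2-KO 36.1% and E3-KO 44.7%, so the shares among these 9 were no higher than the background in E1-KO and E3-KO (3 and 4 of 9) and lower in E2-KO (1 of 9). By direction, 23% of all genes were lower and 15% higher (E1-KO), 22% and 14.2% (E2-KO), and 30.8% and 13.9% (E3-KO). The median log2 change of the 9 genes was -0.06, -0.01 and -0.37 (E1-KO, E2-KO, E3-KO), beside -0.06, -0.08 and -0.15 over all genes. The 3 comparisons share the WT samples. The count in E2-KO was 0 without the filter on low values and also with a replicate block. With samples left out, the count in E1-KO was 1 without E1-KO replicate 2 or either WT sample. In E2-KO it was 0 without either E2-KO or either WT sample, and in E3-KO it was 2, Mael and Tex101, without E3-KO replicate 2 or either WT sample.

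**Figure D2:**
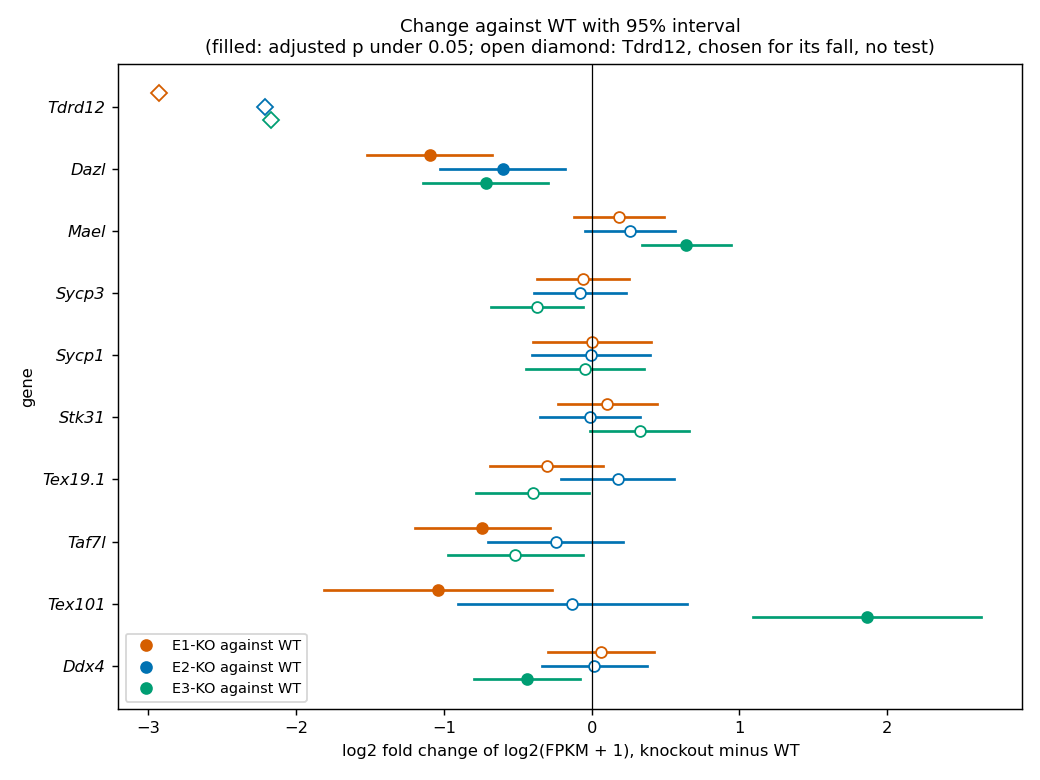
Change of each gene in E1-KO, E2-KO and E3-KO against WT as a log2 fold change of log2(FPKM + 1) (horizontal axis), with 95% intervals from limma; filled points had an adjusted p under 0.05, and Tdrd12 is drawn as open diamonds without a test. The intervals of Sycp1 span 0 in each knockout, and those of Tex101 lie below 0 in E1-KO and above 0 in E3-KO.

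Tdrd12 encodes a Tudor-domain protein with a helicase domain that is needed to make secondary piRNAs in the testis. Tdrd12 stood at 16.9 and 16.4 FPKM in the WT samples, 1.22 and 1.43 in those of E1-KO, 2.91 and 2.71 in those of E2-KO and 2.99 and 2.84 in those of E3-KO. No knockout sample came near WT, and the E1-KO samples were the lowest, with E2-KO and E3-KO overlapping each other. As shares of the WT mean, E1-KO stood at 7.96%, E2-KO at 16.9% and E3-KO at 17.5%, or at log2 changes of -2.93, -2.21 and -2.17. Over 15 alternative settings, including each sample left out, the change ran from -3.56 to -2.81 in E1-KO, from -2.53 to -2.09 in E2-KO and from -2.47 to -2.01 in E3-KO. In bulk RNA, fewer cells with a transcript and less transcript per cell cannot be told apart, which holds for every gene here.

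Mael (Maelstrom), Ddx4 (the Vasa helicase) and Stk31 (a Tudor-domain kinase) encode proteins that, like TDRD12, are found in germ granules or work with piRNAs. Mael stood at 3.35 and 3.51 FPKM in the WT samples, 3.88 and 4.18 in those of E1-KO, 4.75 and 3.9 in those of E2-KO and 6.04 and 5.77 in those of E3-KO. All 6 knockout samples were above both WT samples, with E3-KO highest. Mael rose in E3-KO by 0.64 on the log2 scale (SE 0.134, adjusted p = 0.00497), a call that held in 14 of 14 alternative settings. In E1-KO it differed by 0.18 (adjusted p = 0.309) and in E2-KO by 0.26 (adjusted p = 0.157). Ddx4 stood at 4.8 and 5.31 FPKM in the WT samples, 5.25 and 5.39 in those of E1-KO, 5.78 and 4.54 in those of E2-KO and 3.97 and 3.01 in those of E3-KO, where both samples were below all others. It fell in E3-KO by 0.44 on the log2 scale (SE 0.158, adjusted p = 0.0486). That call held in only 4 of 14 alternative settings. With the replicate block the adjusted p was 0.0552, with quantile normalization 0.214 at a change of -0.26, with median-ratio scaling 0.127, with no filter 0.0935 and with summed rows 0.0503. It was also lost without E3-KO replicate 2 (-0.28, adjusted p = 0.228) or either sample of E1-KO or WT. In E1-KO and E2-KO the Ddx4 changes were 0.06 and 0.02, with 95% intervals from -0.295 to 0.419 and from -0.339 to 0.375.

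Stk31 stood at 4.71 and 4.34 FPKM in the WT samples, 4.74 and 5.16 in those of E1-KO, 5.21 and 3.84 in those of E2-KO and 5.85 and 5.99 in those of E3-KO. The E3-KO samples were above the 6 others, but the difference from WT of 0.33 on the log2 scale (SE 0.149) did not pass the test (adjusted p = 0.105). It passed with quantile normalization (0.54, adjusted p = 0.0225) and with median-ratio scaling (0.46, adjusted p = 0.0313). Stk31 lies on chromosome 6, whose genes as a whole were low in E3-KO. Over its 402 genes whose mean reached 5 FPKM, the median change of log2(FPKM + 0.1) from the WT mean, less that of the genes on other chromosomes in the same sample, was -0.55 and -0.56 in the E3-KO samples and at most 0.052 from 0 in the other 6. The change of Stk31 itself exceeded the median change of chromosome 6, here without subtracting the other chromosomes, by 1.03 and 1.13 in the E3-KO samples. The part of the chromosome in the Stk31 values was not tested.

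Dazl encodes an RNA-binding protein that promotes translation in germ cells and is one of the better expressed germline genes of embryonic stem cells. Dazl stood at 151.9 and 152.6 FPKM in the WT samples, 59.7 and 83.9 in those of E1-KO, 101.2 and 98.7 in those of E2-KO and 110.7 and 76.9 in those of E3-KO. All 6 knockout samples were below WT, and the E3-KO samples spanned the E2-KO ones. In E1-KO, Dazl fell by 1.09 on the log2 scale (SE 0.187, adjusted p = 0.0025), to 47.1% of the WT mean, and this call held in 15 of 15 alternative settings. It fell by 0.60 in E2-KO (adjusted p = 0.0336), to 65.6%, and by 0.72 in E3-KO (adjusted p = 0.0135), to 61.6%. The E2-KO call held in 9 of 15 settings and was lost with the replicate block (adjusted p = 0.0507), with no filter (adjusted p = 0.0817) and when either E2-KO or either WT sample was left out. The E3-KO call held in 12 of 15 and was lost without E3-KO replicate 2 (-0.46, adjusted p = 0.0837), WT replicate 1 (adjusted p = 0.0615) or WT replicate 2 (adjusted p = 0.0681). Between knockouts the Dazl differences were 0.49 for E2-KO minus E1-KO (adjusted p = 0.211), 0.38 for E3-KO minus E1-KO (adjusted p = 0.166) and -0.11 for E3-KO minus E2-KO (adjusted p = 0.715).

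Sycp3 and Sycp1 encode the axial element and the transverse filament of the synaptonemal complex, which holds paired chromosomes together in meiosis. Sycp3 stood at 7.64 and 9.06 FPKM in the WT samples, 7.22 and 8.77 in those of E1-KO, 8.24 and 7.41 in those of E2-KO and 6.19 and 6.26 in those of E3-KO. The E3-KO samples were the lowest, at a difference from WT of -0.37 (SE 0.138, adjusted p = 0.0565), and the E1-KO and E2-KO samples overlapped WT (-0.06, adjusted p = 0.769, and -0.08, adjusted p = 0.674). Sycp3 overlaps Chpt1, a gene of phospholipid synthesis on the opposite strand at 10.3 to 15.4 FPKM, and use of strand in the counting is not given in the sources used here. Sycp1 stood at 3.29 and 3.11 FPKM in the WT samples, 3.03 and 3.38 in those of E1-KO, 3.63 and 2.79 in those of E2-KO and 3.7 and 2.51 in those of E3-KO. Its groups overlapped throughout. The Sycp1 changes were 0.00 in E1-KO (95% interval -0.399 to 0.401), 0.00 in E2-KO (-0.403 to 0.397) and -0.05 in E3-KO (-0.447 to 0.353), with adjusted p of 0.996, 0.992 and 0.846.

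Tex19.1, which restrains retrotransposons in germ cells and placenta, stood at 36.0 and 32.7 FPKM in the WT samples, 25.1 and 30.3 in those of E1-KO, 37.8 and 40 in those of E2-KO and 31.3 and 21.3 in those of E3-KO. The E1-KO and E3-KO samples were below WT and the E2-KO samples above it. None of these differences passed the test, at -0.31 (adjusted p = 0.184), -0.40 (adjusted p = 0.0848) and 0.18 (adjusted p = 0.443) in E1-KO, E3-KO and E2-KO. Without E3-KO replicate 1 the E3-KO difference was -0.67 and passed (adjusted p = 0.00847). The near copy Tex19.2 was at 0.36 to 1.27 FPKM and was not tested.

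Taf7l encodes a germ-cell relative of the TFIID subunit TAF7 and lies on the X chromosome. Taf7l stood at 2.49 and 2.64 FPKM in the WT samples, 1.57 and 0.772 in those of E1-KO, 1.89 and 2.14 in those of E2-KO and 1.78 and 1.23 in those of E3-KO. All 6 knockout samples were below WT. In the E1-KO samples Taf7l fell by 0.74 on the log2 scale (SE 0.202, adjusted p = 0.0193), to 45.6% of the WT mean, and the call was lost without E1-KO replicate 2 (adjusted p = 0.133), WT replicate 1 (adjusted p = 0.0734) or WT replicate 2 (adjusted p = 0.102). The differences in E2-KO (-0.24, adjusted p = 0.375) and E3-KO (-0.52, adjusted p = 0.0643) did not pass, although the latter did without either E1-KO sample (adjusted p = 0.0401 and 0.04).

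Tex101 encodes a glycoprotein anchored to the surface of germ cells. Tex101 stood at 2.31 and 2.46 FPKM in the WT samples, 0.518 and 0.79 in those of E1-KO, 1.83 and 2.38 in those of E2-KO and 18.4 and 6.86 in those of E3-KO. Both E1-KO samples were the lowest and both E3-KO samples the highest, and those of E2-KO overlapped WT. The E3-KO mean was 12.6 ± 8.14 FPKM (SD, n = 2), 528% of WT. Tex101 rose in E3-KO by 1.87 on the log2 scale (SE 0.342, adjusted p = 0.00262). This call held in 14 of 14 alternative settings, with changes from 1.22 to 2.52. Tex101 fell in E1-KO by 1.04 (SE 0.342, adjusted p = 0.04), to 27.4% of WT, and this call held in 7 of 14, with an adjusted p of 0.0525 with the replicate block and 0.103 with no filter, and was lost without either sample of E1-KO or WT (up to 0.171) or E2-KO replicate 2 (0.0513). At a pseudocount of 0.1 the change in E1-KO was -1.75.

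The knockouts also differed among themselves in some of these genes. E3-KO differed from E1-KO in 3 of the 9 genes (Mael and Tex101 higher, Ddx4 lower), where 25.8% of all genes were called, 9.41% higher and 16.4% lower. E3-KO differed from E2-KO in 1 (Tex101 higher), where 15.6% of all genes were called, 5.48% higher and 10.1% lower. With median-ratio scaling Mael was also called, at 0.46 (adjusted p = 0.0431). The main counts of 3 and 1 of 9 were near the shares over all genes. Tex101 was higher in E3-KO by 2.90 than in E1-KO (SE 0.342, adjusted p = 0.000615) and by 2.00 than in E2-KO (SE 0.342, adjusted p = 0.00663), and both held in 14 of 14 alternative settings. Mael was higher in E3-KO than in E1-KO by 0.46 (SE 0.134, adjusted p = 0.035). For Ddx4 the same difference was -0.50 (SE 0.158, adjusted p = 0.0457). The Mael difference held in 7 of 14 settings and was lost with no filter (adjusted p = 0.0641) and without either sample of E1-KO, E3-KO or WT (adjusted p up to 0.169). That of Ddx4 held in 5 of 14 and was lost with the replicate block, both scalings, no filter (adjusted p = 0.0901) and without E3-KO replicate 2 (-0.35, adjusted p = 0.18) or either sample of E1-KO or WT. Between E2-KO and E1-KO the lowest limma adjusted p among the 9 was 0.186, for Tex19.1. That made 0 of the 9 called at an adjusted p under 0.05, beside 0.834% of all genes (0.346% lower and 0.488% higher). Every other setting that kept all 8 samples gave 0 as well, and leaving out either E3-KO sample gave 1.

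Among the members, Tdrd12 and Dazl varied most alike over the 8 samples (Pearson r of log2(FPKM + 1) 0.90), and so did Sycp3 with Ddx4 (0.83) and Mael with Stk31 (0.82), whereas Tex101 and Ddx4 ran opposite (-0.72). These correlations describe 8 samples from 4 groups and largely follow the group means. Tdrd12 was chosen for its fall against WT, so its high correlations with other genes that fell follow in part from that choice. Among 8392 other genes whose mean reached 5 FPKM, those most like Tdrd12 were Irf2bp2 (r = 0.994), Hexa (0.992) and Laptm4b (0.992). Hexa, a lysosomal enzyme subunit, had means of 81.5 FPKM in WT and 16.9, 22.8 and 24.4 in E1-KO, E2-KO and E3-KO. The genes most like Dazl were Gtf3c3 (r = 0.992), Tmem18 (0.987) and Abhd17c (0.979), and Gtf3c3, a subunit of the RNA polymerase III factor TFIIIC, went from 21.8 FPKM in WT to 14.2, 17.5 and 16.1.

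Other genes of the same pathways were taken from lists that hold none of the 10. These lists were chosen with earlier results of these data known. The direction of a list, here and below, is therefore not independent evidence. Of 16 piRNA pathway genes, 7 were tested. Of these, E1-KO showed 6 that fell, E2-KO 1 and E3-KO 5, with none that rose, beside 23%, 22% and 30.8% of all genes called lower. The list's median changes were -0.73, -0.37 and -0.67. Gtsf1, a zinc-finger partner of PIWI proteins, went from 12.6 FPKM in WT to 3.9, 4.93 and 2.82 in E1-KO, E2-KO and E3-KO and fell in each, by 1.46, 1.19 and 1.83 (adjusted p = 0.000997, 0.00283 and 0.000246). Its identifier had several rows. Summed, they gave 14.7, 10.1, 9.74 and 5.68 FPKM and changes of -0.49, -0.54 and -1.23 that also passed. Mov10l1, the helicase that starts primary piRNA processing, fell by 0.65 in E1-KO (adjusted p = 0.00978) and by 1.47 in E3-KO (adjusted p = 0.000178), and differed by -0.37 in E2-KO (adjusted p = 0.0844). Its E1-KO call was lost without either E1-KO sample or WT replicate 1. Asz1, of germ granules, was at 3.5 FPKM in WT and 0.435 in E1-KO and fell there by 1.65 (adjusted p = 0.000925). It fell by 0.94 in E3-KO (adjusted p = 0.00897, lost without WT replicate 2), where its chromosome, 6, was low as a whole. In E2-KO Asz1 differed by -0.54 (adjusted p = 0.09). Fkbp6, a co-chaperone, fell in E1-KO by 0.76 (adjusted p = 0.00324) and differed by -0.30 in E2-KO (adjusted p = 0.12) and -0.33 in E3-KO (adjusted p = 0.0807). Of the counts, that in E1-KO was 3 without E1-KO replicate 2, that in E2-KO was 2 without E2-KO replicate 1 or either E3-KO sample, and that in E3-KO was 3 without E3-KO replicate 2 and 2 without WT replicate 2.

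Of 21 genes of the meiotic chromosome axis and recombination, 16 were tested, and they moved both ways. In E1-KO 3 fell and 4 rose, in E2-KO 4 fell and 4 rose, and in E3-KO 6 fell and 4 rose, with medians of 0.09, -0.01 and 0.23. Among all genes the shares were 23% lower and 15% higher for E1-KO, 22% and 14.2% (E2-KO), and 30.8% and 13.9% (E3-KO), so the falls of this list were near the background. Tex15, needed for repair of meiotic breaks and for transposon silencing, went from 26.4 FPKM in WT to 6.34, 6.19 and 5.42 and fell by 1.90, 1.93 and 2.10 (adjusted p = 4.45e-05, 4.96e-05 and 3.16e-05). Rec8, the meiotic cohesin subunit, fell by 1.16, 1.07 and 0.84 (adjusted p = 0.000864, 0.00132 and 0.00284). Syce1, of the synaptonemal complex's central element, rose by 1.04, 1.21 and 0.51 (adjusted p = 0.000672, 0.00041 and 0.0124), the last being lost without either WT sample. Stra8, which starts meiosis on retinoic acid, rose by 1.52 in E1-KO (adjusted p = 0.000825). In E2-KO Stra8 rose by 0.63 (adjusted p = 0.037). That call was lost with no filter (adjusted p = 0.0895), without E2-KO replicate 2 and without either WT or either E1-KO sample. In E3-KO Stra8 differed by 0.53 (adjusted p = 0.0597). There it passed with quantile normalization (0.73, adjusted p = 0.0253) and with median-ratio scaling (0.66, adjusted p = 0.0345). Stra8 lies on chromosome 6, which was low as a whole in E3-KO. Without WT replicate 1 the total of calls in E2-KO was 5, and without WT replicate 2 it was 3 in E2-KO and 6 in E3-KO.

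Of 19 other germline and testis genes, 13 were tested. Of these, 6 fell and 1 rose in E1-KO, 4 fell in E2-KO and 6 fell in E3-KO, with medians of -0.30, 0.05 and -0.21. Of all genes, 23%, 22% and 30.8% were called lower and 15%, 14.2% and 13.9% higher. With summed rows 5, 3 and 5 genes of the list fell. Dpep3 had several rows, and the row used gave 2.68 FPKM in WT and 1.3, 1.36 and 1.71 in E1-KO, E2-KO and E3-KO. Summed, its rows gave 3.57 FPKM in WT and 2.94, 2.74 and 4.44, which is above WT in E3-KO. Sohlh2, a germ-cell transcription factor, fell from 38.8 FPKM in WT to 24.8, 26.3 and 21.0 (adjusted p = 0.00492, 0.00915 and 0.00089), and the E2-KO call was lost without WT replicate 1. Nxf3, an X-linked relative of an RNA export factor, fell by 0.98, 0.41 and 0.81 (adjusted p = 0.000635, 0.0293 and 0.00109), and the E2-KO call was lost with quantile normalization, with median-ratio scaling and without either E2-KO or either WT sample. Rhox6 and Rhox9 are homeobox genes of a multicopy X-linked cluster whose reads may be shared between copies. They fell in E3-KO, by 0.94 each (adjusted p = 0.00686, lost without WT replicate 2, and 0.012, lost without E3-KO replicate 2 or WT replicate 1). In E1-KO they differed from WT by 0.51 and -0.30 (adjusted p = 0.0877 and 0.344), and in E2-KO by 0.15 and -0.28 (adjusted p = 0.594 and 0.393). Total calls of this list without WT replicate 1 were 3 in E1-KO and 0 in E2-KO. Without WT replicate 2 they were 3 and 1, and without either E1-KO sample there were 4 in E1-KO.

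**Figure D3:**
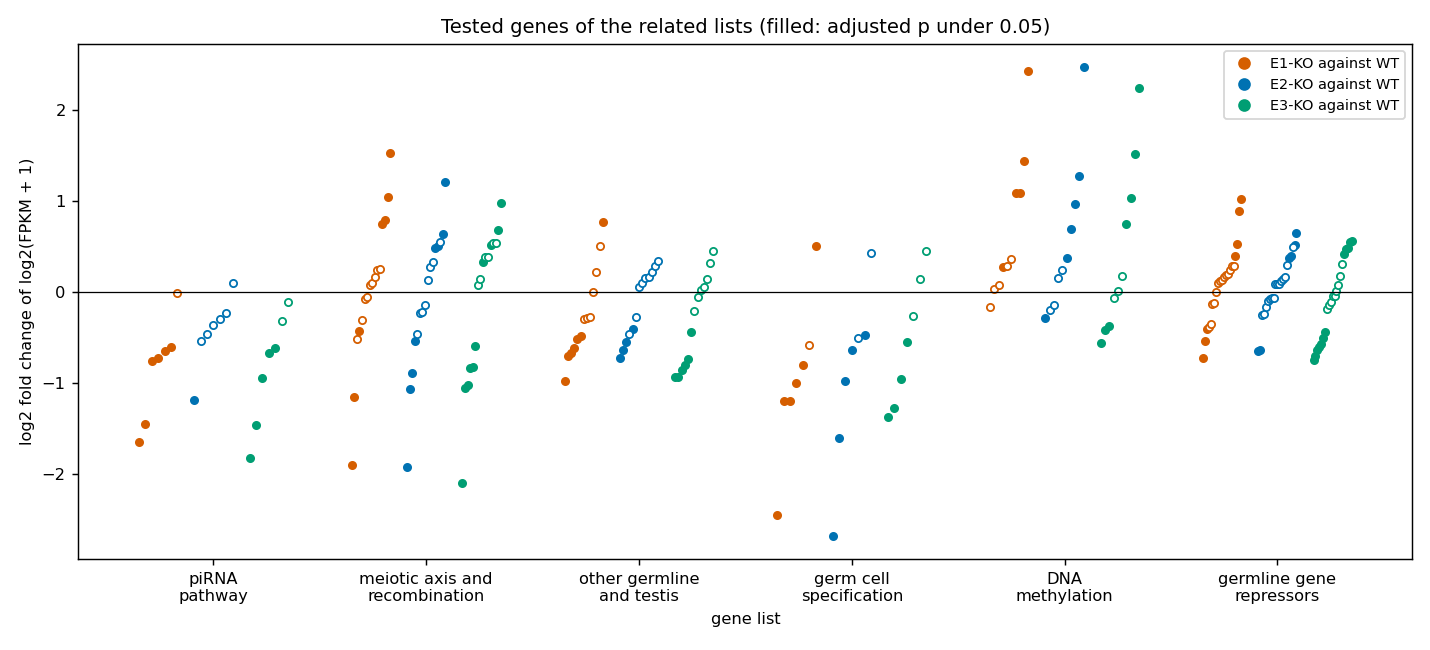
Log2 fold change of log2(FPKM + 1) against WT (vertical axis) for every tested gene of the 6 related lists (horizontal axis) in E1-KO, E2-KO and E3-KO, ordered by size within a list; filled points had an adjusted p under 0.05. The tested piRNA pathway genes that changed lie below 0 in all knockouts, and the largest rise in each knockout is Dnmt3l, among the DNA methylation genes.

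The DNA methylation genes included the largest rises of these lists. Of 10 listed and tested, 5 rose and none fell in E1-KO, 5 rose and 1 fell in E2-KO, and 4 rose and 3 fell in E3-KO, where 15%, 14.2% and 13.9% of all genes were called higher and 23%, 22% and 30.8% lower. The share that fell in E3-KO was near that background. For Dnmt1, Tet3 and Tdg both E3-KO samples were below both WT samples. Their means in WT and E3-KO were 101.5 and 78.4 FPKM for Dnmt1, 7.77 and 5.56 for Tet3, and 28.2 and 18.8 for Tdg. Tet3 was above WT in E1-KO and E2-KO, at 10.2 and 10.3 FPKM. Dnmt3l, the cofactor of the de novo methyltransferases, went from 8.53 FPKM in WT to 50.3, 53.4 and 44.3 and rose by 2.42, 2.46 and 2.24 (adjusted p = 0.00017, 0.000167 and 0.000143). Dnmt3b went from 16.3 FPKM to 35.6, 40.9 and 48.4 and rose by 1.08, 1.27 and 1.51 (adjusted p = 0.000273, 0.000164 and 6.03e-05). Dnmt3a went from 8.13 FPKM to 23.8, 16.8 and 18.5 and rose by 1.44, 0.96 and 1.03 (adjusted p = 0.00227, 0.0146 and 0.00833). The Dnmt3a call was lost in E2-KO without E2-KO replicate 1 or either WT sample and in E3-KO without WT replicate 1. Hells, a chromatin remodeller needed for methylation, rose by 1.09, 0.69 and 0.74 (adjusted p = 0.00278, 0.0212 and 0.0123). The Hells call was lost in E2-KO with quantile normalization, with no filter and without E2-KO replicate 1 or either WT sample, and in E3-KO without E3-KO replicate 2 or either WT sample. The total of calls in E2-KO was 2 without E2-KO replicate 1 or either WT sample, and in E3-KO it was 3 without WT replicate 1 and 4 without WT replicate 2. Whether methylation of the 10 promoters differed between groups was not measured.

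Genes for repressors of germline genes, 21 listed and tested, moved both ways, with 3 lower and 4 higher (E1-KO), 2 and 4 (E2-KO), and 7 and 5 (E3-KO), and medians of 0.13, 0.08 and -0.05. Of all genes, 23%, 22% and 30.8% were called lower and 15%, 14.2% and 13.9% higher, so the lower calls of this list were below the background in the first 2 comparisons and near it in the third. Cbx1, which encodes a heterochromatin protein that binds methylated histone H3 lysine 9, rose by 1.02, 0.65 and 0.47 (adjusted p = 0.00211, 0.0163 and 0.0452). Its E2-KO call was lost without E2-KO replicate 1 or either WT sample. In E3-KO the Cbx1 call was lost with the replicate block, with no filter and without either WT, either E1-KO or the second E3-KO sample. Ehmt1, a histone H3 lysine 9 methyltransferase, rose by 0.89 in E1-KO (adjusted p = 0.00471) and by 0.55 in E3-KO (adjusted p = 0.0297, lost with no filter and without E3-KO replicate 2 or either WT sample). In E2-KO it differed by 0.49 (adjusted p = 0.0552). Wdr5, a scaffold shared by several chromatin complexes, fell by 0.73 in E1-KO (adjusted p = 0.00138) and by 0.58 in E3-KO (adjusted p = 0.00306), and differed by -0.26 in E2-KO (adjusted p = 0.0933). Cbx3, on chromosome 6, fell by 0.75 in E3-KO (adjusted p = 0.000611) and differed by 0.29 in E1-KO (adjusted p = 0.0501) and 0.08 in E2-KO (adjusted p = 0.551). Without WT replicate 1 the total of calls was 4, 2 and 7 in E1-KO, E2-KO and E3-KO. Without WT replicate 2 it was 3 for both E1-KO and E2-KO, and without E1-KO replicate 1 it was 4 in E1-KO.

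Markers of embryonic stem cells and of other cells were summed in each sample. The summed level of 8 naive embryonic stem cell markers was 1793 to 1880 FPKM in WT, 1611 to 1712 in E1-KO, 1876 to 1982 in E2-KO and 1536 to 1708 in E3-KO. Single markers of that list changed: 5 of 8 fell in E1-KO, 3 fell and 2 rose in E2-KO, and 4 fell in E3-KO. Their medians were -0.59, -0.15 and -0.34. Of all genes, 23%, 22% and 30.8% were called lower and 15%, 14.2% and 13.9% higher. Sox2, the gene the study asked about, is one of the 8. Klf4, a pluripotency factor, fell in each knockout, by 0.97, 1.17 and 1.08 (adjusted p = 0.000451, 0.000247 and 0.00019), and Pou5f1 and Nanog stood at 360 FPKM or more in all 8 samples. Other markers were above WT in both E2-KO samples. Their means in WT and E2-KO were 370.8 and 499.3 FPKM for Pou5f1, 458.8 and 570.9 for Nanog, and 190.8 and 276.5 for Zfp42. The markers singled out in this paragraph were chosen after their values were seen. The sums of the other cell types were low. Ldhc for germ cells, Thy1 for fibroblasts and Gata6 for endoderm were the only tested markers of their lists and made up the largest part of each sum, and no two-cell-like marker was tested. Of 7 markers of haploid male germ cells, 6 had a row and none was at 0 in all 8 samples, although Prm1, Prm2, Tnp2, Acrv1 and Acr were at 0 in most. Their sum was 3.19 to 3.28 FPKM in WT, 1.81 to 1.93 in E1-KO, 0.924 to 2.2 in E2-KO and 0.461 to 0.808 in E3-KO, the group in which Tex101 was highest. Ldhc made up 2.97 and 2.98 FPKM of the WT sums. The sum of 6 fibroblast markers was 1.14 to 1.54 FPKM in WT, 3.49 to 3.52 in E1-KO, 2.4 to 2.91 in E2-KO and 3.47 to 3.81 in E3-KO. For extraembryonic endoderm, 3 of 5 markers had a row, and their sum was 1.55 to 1.58 FPKM in WT, 0.642 to 0.666 in E1-KO, 0.854 to 1.1 in E2-KO and 2.38 to 4.61 in E3-KO. For two-cell-like cells, 4 of 5 had a row, with a sum of 0.648 to 0.651 FPKM in WT, 1.05 to 1.26 in E1-KO, 1.32 to 2.12 in E2-KO and 2.1 to 2.27 in E3-KO. Like Tex101 and Mael, the endoderm sum was highest in both E3-KO samples, whereas the two-cell-like sums of E3-KO and E2-KO overlapped. The part of any of these cells in the values of the 10 genes was not tested.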

How the data were processed

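Total RNA of 8 samples had been made into libraries and sequenced as paired-end reads, per the labels' protocols. The submitters' processing notes name Trimmomatic 0.36, TopHat2 2.0.12, Cufflinks 2.2.1 and the build mm9, without roles. The authors deposited 1 value per row, taken here as FPKM from its distribution and from those notes. How strand was used and whether samples were scaled to each other are not given in the sources used here. Of 17812 identifiers, 660 had several rows. For these the row in its place by GRCm38 gene order was used, which left out 81. Symbols matched for 17262. Absolute depth was unknown, so no counting intervals could be given.

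log2(FPKM + 1) was fitted with limma 3.58.1 (eBayes with trend, R 4.3.3) over all 8 samples with the group as the only term (4 residual degrees of freedom), for genes whose mean reached 1 FPKM. P-values were two-sided and adjusted over all genes tested. The SE of a gene was pooled over the 4 groups and moderated by the spread of other genes (total degrees of freedom 9.03). It is therefore the same in every comparison, also where the SDs of the groups differ, as for Tex101 and Dazl. Intervals are 95%. The scripts were tested on simulated data. The members, lists and tests were chosen with earlier results of these data known, so a list's direction is not independent evidence. Named from each list were up to 4 called genes with the largest absolute change in any knockout, and, for Tdrd12 and Dazl, the 3 genes with the highest correlation. Alternatives were a replicate block, quantile normalization, median-ratio scaling, a pseudocount of 0.1, no filter, a minimum of 5 FPKM, summed rows and leaving out each sample. For genes other than the 10 these alternatives were chosen after seeing the data. Figures were drawn with matplotlib 3.10.9 (Python 3.11.15).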

Additional observations from a re-analysis of the deposited data

Results flagged for a closer look

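Differences between 2 knockouts that passed limma's test of the difference itself were found for 3 of the 9 tested genes. All 3 were between E3-KO and E1-KO, and 1 of them, Tex101, was also between E3-KO and E2-KO. Of all genes, 25.8% were called between E3-KO and E1-KO, 15.6% between E3-KO and E2-KO and 0.834% between E2-KO and E1-KO. The counts of 3 and 1 of 9 were thus near the background. For Tex101 the change against WT was -1.04, -0.13 and 1.87 (E1-KO, E2-KO, E3-KO), and E3-KO exceeded E1-KO by 2.904 and E2-KO by 1.996 (adjusted p = 0.000615 and 0.00663). The 2 E3-KO samples, at 18.4 and 6.86 FPKM, were both above the 6 others, which reached 2.46 FPKM at most. Mael was higher in E3-KO than in E1-KO by 0.458 (adjusted p = 0.035), and the 2 E3-KO samples were above the 2 E1-KO samples. The Mael call held in only 7 of 14 alternative settings. For Ddx4, E3-KO minus E1-KO was -0.5 (adjusted p = 0.0457), and both E3-KO samples were below both E1-KO samples. The Ddx4 call held in only 5 of 14 alternative settings. No cause was tested.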

How the results depend on the processing

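Precision was limited by 2 samples per group and an unknown depth. When a sample was left out, the lone sample of its group was assumed to vary like the other groups. No change of a called member reversed. Replicate numbers did not pair the samples (correlations of deviations -0.043 to 0.089, mean 0.005). Quantile normalization and median-ratio scaling shifted the genome-wide centre, which stood at -0.15 in E3-KO.

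With the replicate block, 31 genes differed between E2-KO and E1-KO, against 94 without it, 1 with no filter and 58 with a minimum of 5 FPKM. The block called 0 members in E2-KO against WT, as did no filter. A minimum of 5 FPKM, which leaves 3 members, called 1 in E1-KO and 1 in E3-KO against WT, and 0 for E3-KO against either E1-KO or E2-KO. No filter called 1 between E3-KO and E1-KO, and median-ratio scaling called 2 between E3-KO and E2-KO. The main counts were 3, 1 and 4 against WT in E1-KO, E2-KO and E3-KO, 3 for E3-KO and E1-KO and 1 for E3-KO and E2-KO.

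Leaving out 1 sample gave 2023 to 4677 genes in E1-KO against WT, 1851 to 4453 in E2-KO and 2810 to 5353 in E3-KO, against 4283, 4071 and 5037, with the lowest without WT replicate 2. It gave 2 to 263 genes between E2-KO and E1-KO (lowest without E2-KO replicate 1, highest without E3-KO replicate 1), 1306 to 3291 between E3-KO and E1-KO (lowest without E1-KO replicate 1) and 981 to 1549 between E3-KO and E2-KO (lowest without E2-KO replicate 1). It gave 1 to 3 members in E1-KO against WT (1 without E1-KO replicate 2 or either WT sample), 0 to 1 in E2-KO (0 without either E2-KO or either WT sample) and 2 to 5 in E3-KO (2 without E3-KO replicate 2 or either WT sample, 5 without E3-KO replicate 1). Between knockouts it gave 0 to 1 (E2-KO and E1-KO), 1 to 3 (E3-KO and E1-KO, 1 without either E1-KO or either WT sample) and 1 to 2 members (E3-KO and E2-KO, 2 without E3-KO replicate 1).

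The split of lower against higher calls moved with the scaling. It was 2589 to 1694 in E1-KO against WT (quantile 2132 to 2041, median-ratio 2244 to 1996), 2476 to 1595 in E2-KO (2001 to 1880, 2055 to 1912) and 3471 to 1566 in E3-KO (2459 to 2275, 2421 to 2311). It was 1850 to 1061 between E3-KO and E1-KO (1406 to 1391, 1288 to 1454) and 1136 to 618 between E3-KO and E2-KO (838 to 844, 788 to 890). With a minimum of 5 FPKM, which leaves fewer genes, the counts that fell by over 1.5 times were 3 piRNA genes in E1-KO and 2 in E3-KO, 5 and 6 meiotic genes (E2-KO, E3-KO) and 4, 2 and 3 other germline genes (E1-KO, E2-KO, E3-KO). No filter gave 2 piRNA genes and 5 meiotic genes in E2-KO.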

Other observations

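Of 8 genes listed for the specification of primordial germ cells, 7 were tested. This list, too, was chosen with earlier results of these data known. Of the 7, 5 fell and 1 rose in E1-KO, 5 fell in E2-KO and 4 fell in E3-KO, with medians of -1.01, -0.64 and -0.55. Among all genes, 23%, 22% and 30.8% were called lower and 15%, 14.2% and 13.9% higher. The gene that rose was Dnd1, an RNA-binding protein gene, from 2.07 to 3.39 FPKM in E1-KO (adjusted p = 0.0368, lost with no filter and without E1-KO replicate 1 or either WT sample), and Nanos3 was called in no knockout. Dppa3, which protects the maternal genome from demethylation in the zygote, went from 16.5 FPKM in WT to 2.25, 1.72 and 8.07 and fell by 2.45, 2.68 and 0.96 (adjusted p = 0.000119, 8.92e-05 and 0.00525). Dppa3 is a gene of chromosome 6, low as a whole in E3-KO, and was higher in E3-KO than in E1-KO by 1.49 (adjusted p = 0.00118) and than in E2-KO by 1.73 (adjusted p = 0.0015). Prdm1, a repressor of somatic genes, fell by 1.20, 1.61 and 1.27 (adjusted p = 0.000543, 0.000182 and 0.000276), and Kit, the receptor of stem cell factor, by 1.20, 0.98 and 1.38 (adjusted p = 0.000248, 0.000649 and 9.37e-05). Prdm1 also had several rows, and their sum gave -1.18, -1.57 and -1.22. Tfap2c, a transcription factor of early germ cells, fell by 1.01 in E1-KO and 0.64 in E2-KO (adjusted p = 0.000511 and 0.00419) and differed by -0.27 in E3-KO (adjusted p = 0.1). For Tfap2c, E3-KO exceeded E1-KO by 0.74 (adjusted p = 0.00277).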
